A study of Homo sapiens with 10 samples.

Results

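The m6A windows at transcript starts are the rows of the 2 deposited m6A lists whose window begins within the first 200 bases of its transcript (8 possible start positions from base 0, in steps of 25 bases, counting the first base as 0). They were chosen by position alone. They numbered 1132 of 24494 windows (4.62%) in replicate 1 and 1190 of 24855 windows (4.79%) in replicate 2. The named windows lay in 1475 genes when either replicate was counted, 15.4% of the 9549 genes with any m6A window. In 777 genes, 8.14% of the 9549, start windows of both replicates shared at least 1 base, and these are called both-replicate hosts below. A spreadsheet had turned the gene name of 3 start windows in each list into a date. Those windows were counted as windows and left out of results by gene.

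All 10 samples came from HCT116, an established human colorectal carcinoma line with an activating β-catenin mutation, and per the labels all were exposed to cycloheximide at 100 ug/ml for 3 min. Ribosome footprints and mRNA were each sequenced from 1 control library, which per the file headers carried a hairpin against GFP, and from 2 libraries with a hairpin knockdown of YTHDF1, called knockdown 1 and knockdown 2. The titles number the hairpin and the genotype field does not, so different hairpins and repeats of a single hairpin cannot be told apart. YTHDF1 immunoprecipitation (RIP) and its whole-lysate input had 1 library each, and m6A-seq had 2 replicates, all from cells labelled control without naming a hairpin. No label says that replicates were separate cultures, so the spread between them may be technical. In the expression table, YTHDF1 itself had a footprint signal of 61.4 in the control against 17.0 and 19.9 in the knockdown libraries, and an mRNA signal of 27.4 against 8.62 and 7.81. The epithelial markers EPCAM, KRT8, KRT18, KRT19 and CDH1 were present in all 6 libraries of that table. Of 8 markers of fibroblasts and blood cells, COL1A1, FN1, VIM and CD68 were listed. The first 3 lay between 0.312 and 13.2 in every library, and CD68 had a footprint signal of 15090 and an mRNA signal of 19.9 in the control. No file gives read counts, so sequencing depth is unknown and no counting error can be attached to any value.

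N6-methyladenosine (m6A) is laid down on mRNA mainly by METTL3 and METTL14 at a short motif around GGAC, and is known chiefly from long internal exons and the region around the stop codon. Near the transcript start a related mark, m6Am, sits on the cap-adjacent adenosine and is written by PCIF1. Antibodies against m6A bind m6Am as well, so a window at a transcript start can hold either mark. YTHDF1 is a cytoplasmic reader of m6A known for promoting translation of the mRNAs it binds, and m6A in the 5′ untranslated region is known for cap-independent initiation under stress.

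The lists do not name the transcript along which a window is placed. The RefSeq start table (GRCh38.p14) held a start for 1190 of the 1475 host genes (80.7%), and it was used to check whether the listed positions count from a transcript start. Each window carries the position of a 5-base motif. Among windows with that motif no later than base 37, the motif lay exactly at the listed position after a RefSeq start for 8 of 53 windows (15.1%) in replicate 1 and for 6 of 44 windows (13.6%) in replicate 2. With the position moved by 1 to 8 bases either way, 0 or 1 window matched at every offset. The 5 genes that matched in both replicates are shown because their windows can be tied to genomic sequence. Each is printed 5′ to 3′ on the strand of the gene, with the motif in capitals, at chr7:151028464-151028493 (plus), chr10:92848530-92848559 (plus), chr9:121201840-121201869 (minus), chr7:66921240-66921269 (plus) and chr15:23039530-23039559 (minus) in the order below. All lie at an annotated transcript start, and the sequences are RefSeq's.
ABCB8: gggatgagggtgAAACTgctattgccggcg
EXOC6: caaaatggcggaGAACAgcgagagtctggg
RAB14: atcttGGACCagcccgaggaagatactgag
TMEM248: ttgccggagcccGAACTgaggcggcggcgg
TUBGCP5: tgcaggagcgcgGAACAtggcgcggcacgg

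Windows over these 5 motifs began at base 0 or 25 in both replicates. The deposited ratio of immunoprecipitate over input signal, called the m6A ratio here, was 66.8 and 93.2 at EXOC6, a subunit of the exocyst, which tethers secretory vesicles. It was 24.4 and 30.5 at TMEM248, a transmembrane protein gene. Both replicates listed the same input signal for each of these windows, 16.0 at EXOC6 and 11.7 at TMEM248. The ratios were 10.5 and 8.36 at ABCB8, a mitochondrial ABC transporter, 10.4 and 8.26 at RAB14, a small GTPase of endosomal transport, and 4.05 and 3.6 at TUBGCP5, a subunit of the γ-tubulin ring complex. RAB14 had a further start window at bases 150 to 225, with ratios of 5.28 and 5.26. EXOC6 shows a limit of the match, since it has 3 RefSeq starts and the motif lay at the listed position for 1 of them.

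Start windows were not more frequent than windows further along the transcript. The 200 bases of the rule held 1132 and 1190 windows, the next 200 held 1391 and 1489, bases 400 to 599 held 1725 and 1812, and bases 800 to 999 held 1886 and 1880. Within the first 200 bases, position 0 held more windows than any other start position, 180 in replicate 1 and 197 in replicate 2, against 110 to 158 and 133 to 161 at the other 7 positions. Position 0 takes every window that reaches the first base. Position 175, the last inside the rule, held 149 and 139 windows and position 200, the first outside, held 133 and 152.

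The m6A ratio was highest at the first base and lower from about base 50 on. Windows that began at 0 had a median ratio of 10.4 in replicate 1 and 8.37 in replicate 2. Those at 25 had medians of 7.35 and 7.15, and those at 50 had medians of 5.76 and 5.64. Windows at 175 had medians of 5.58 and 5.08, beside 5.06 and 5.73 at 200. A ratio of at least 20 was listed for 28.3% and 23.9% of windows at position 0, for 13.6% (154) and 12.4% (147) of all start windows, and for 5.86% and 5.44% of the other windows. Over all start windows the median ratio was 6.20 and 6.16, against 5.62 and 5.52 in the rest of each list, and the listed values ran from 3.00 to 752.0 and from 3.01 to 934.7. The lists hold no ratio below 3, and 38 and 37 start windows have no ratio because their input is 0.

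**Figure D1:**
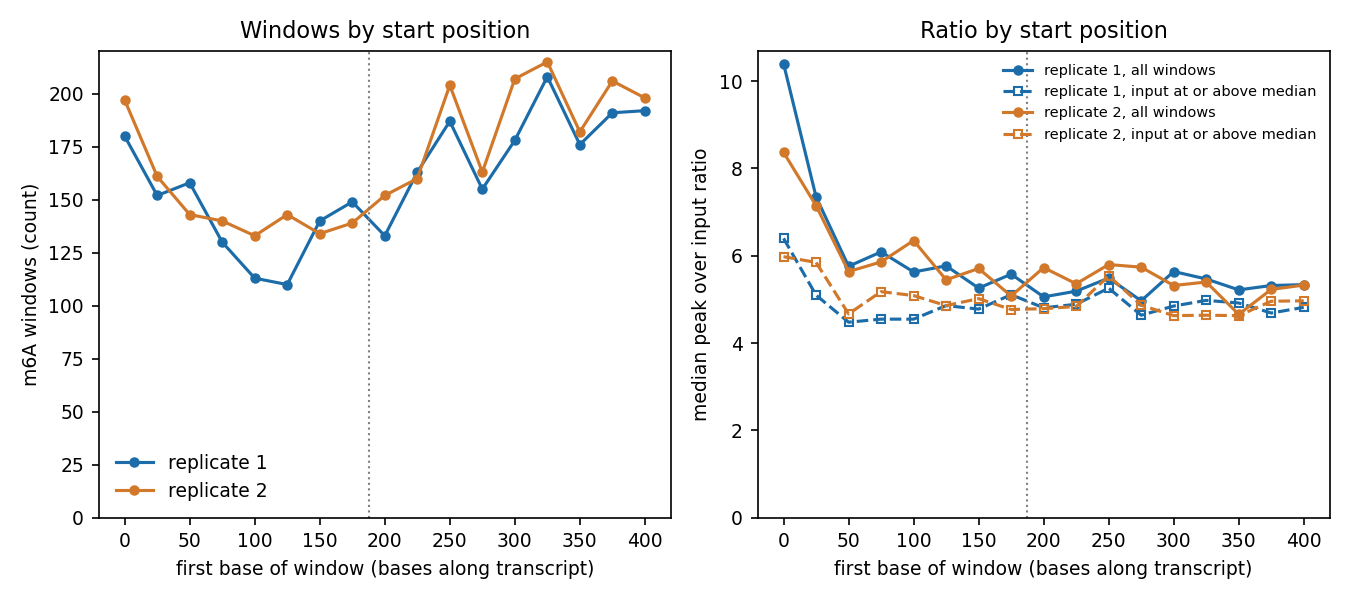
Start windows by the position at which they begin (horizontal axis, bases from the transcript start), with the number of windows and the median deposited ratio of immunoprecipitate over input in each replicate. The dotted line marks the limit of the rule, and dashed lines show windows with input at or above the median of the list. The median ratio is highest at position 0 (10.4 and 8.37), and at 6.40 and 5.98 there among windows with such input.

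Input signal, the denominator of the ratio, was lowest at position 0 in replicate 1 but not in replicate 2. The median input was 87.6 and 109.8 at position 0, 93.4 and 102.8 at position 25, and 100.4 and 108.0 at position 50. At position 200 it was 144.1 and 150.9, the highest of positions 0 to 400 in both replicates. The median immunoprecipitate signal at 0 was 944.8 and 1096, against 745.0 and 828.5 at 200. When start windows were restricted to those with input at or above the median of their list, a comparison added after the data were seen, the median ratio was 4.93 in replicate 1 and 5.14 in replicate 2, beside 4.90 and 4.95 in other windows with such input. At position 0 the windows with such input (79 and 94) had medians of 6.40 and 5.98, and those with lower input had medians of 19.0 and 15.4. The largest ratios of all came from windows with almost no input, such as SYNCRIP, a hnRNP, with a ratio of 934.7 over an input of 0.175 in replicate 2, and DGAT1, a triglyceride-synthesis enzyme, with 752.0 over 0.750 in replicate 1. Neither of these windows overlapped a window in the other replicate.

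A window found in 1 replicate was found again in the other as often at transcript starts as elsewhere, within a few percentage points. In replicate 1, 822 of 1129 named start windows (72.8%) shared at least 1 base with a window of the same gene in replicate 2, and in replicate 2 the count was 847 of 1187 (71.4%). The shares for all other windows were 74.5% and 72.6%. The gene itself was in the other list for 95.0% and 90.4% of start windows, so most unmatched windows lay in genes listed in both replicates. At position 0 the support was 77.1% and 74.5%. No test was made on these shares, since windows of the same list share a library and often a gene.

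Overlapping start windows agreed closely in place. There were 799 such pairs in the 777 both-replicate hosts. The listed motif position was the same in 648 pairs (81.1%, against 75.5% of 17730 pairs of other windows), the first base was the same in 507 (63.5%), and both edges were the same in 304. The summits lay a median of 5 bases apart, with an upper quartile of 17 bases. The m6A ratios of the 774 pairs with a value in both lists had a Spearman correlation of 0.828 and a Pearson correlation of 0.879 on the log2 scale, and 702 pairs (90.7%) were within 2-fold of each other, beside 94.0% of the other pairs. These correlations are across windows and describe only these 2 libraries. The input signal was identical in both lists for 328 pairs (41.1%, within a relative tolerance of 1e-06), beside 33.4% of the other pairs, so the denominators of the ratios were in part the same numbers. The immunoprecipitate signal alone had a Spearman correlation of 0.793 over the pairs.

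**Figure D2:**
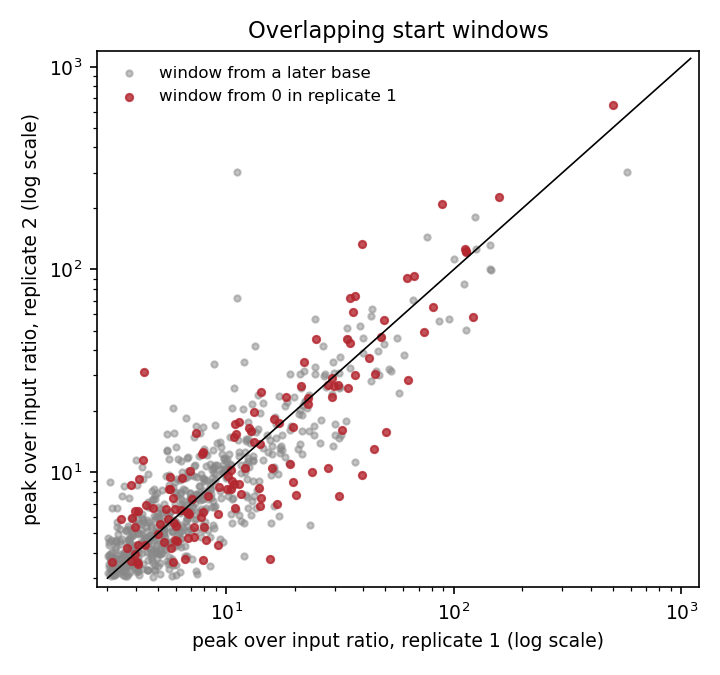
The deposited m6A ratio in replicate 1 (horizontal) and replicate 2 (vertical) of start windows that overlap between the lists, both on log axes. Of the 774 pairs, 702 lie within 2-fold of each other, and pairs whose window begins at base 0 in replicate 1 are drawn in red.

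Start windows were of ordinary width, with a median of 100 bases in replicate 1 and 125 in replicate 2, as in the rest of the lists. Because a window only has to begin before base 200, 47.7% and 51.3% of them ended beyond it, and the summit lay before base 200 in 71.9% and 69.8%. The widest ran from base 150 to 1475 of PDLIM5, a cytoskeletal PDZ and LIM domain protein, in both replicates, with its summit at base 506. The listed motif lay inside the window for 75.7% and 77.6% of start windows and for 80.7% of other windows in each list.

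The motif at start windows leaned towards GGAC. The lists use 12 motifs of 5 bases, each made of A or G at the first and second places, then AC, then A, C or T. The 3 motifs that begin with GGAC marked 36.4% and 37.0% of start windows and 30.4% and 29.1% of the others. GGACC alone accounted for most of that difference, at 14.3% and 15.0% against 9.77% and 9.57%, whereas the share for GGACT, the form known best from internal sites, was 10.4% and 10.6% against 9.17% and 8.59%. AGACA was rarer at starts (5.74% and 6.97%, against 8.92% and 9.35%). The share of GGAC motifs was much the same in the next bin, bases 200 to 399, in replicate 1 (34.5%) and lower there in replicate 2 (31.5%). Start windows had similar median ratios whichever of the 4 motif families they carried, from 5.84 to 6.80 in replicate 1 and from 5.54 to 6.52 in replicate 2, both highest for the GAAC family.

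A cap-adjacent m6Am needs an A at the first transcribed base. RefSeq starts of hosts with a window at position 0 in both replicates began with A in 57.0% of 121 starts (87 genes). The share was 46.0% of 842 starts of both-replicate hosts, 45.9% of 9873 starts of m6A genes with no start window, and 44.4% of all 35116 starts. Searched on the transcribed strand only, GGAC lay in the first 50 bases of 12.4% of the starts of genes with a window at 0 and of 20.1%, 19.8% and 18.9% of the other groups in the same order. GGACT, a subset of the GGAC matches, lay in 3.31%, 3.56%, 4.70% and 4.90%. The mean share of G and C in these 50 bases was 62.3%, 65.5%, 66.0% and 59.2%. The groups overlap, since the genes with a window at 0 are among the both-replicate hosts. Several starts of 1 gene are counted separately, the RefSeq starts were not matched to the transcripts of the lists, and no test was made. By the motif listed for each window, GGAC marked 39.4% and 37.6% of windows at position 0. It marked 36.4% and 37.0% of all start windows and 30.4% and 29.1% of the others. Windows at 0 had a median width of 100 and 125 bases, so the listed motif need not lie in the first 50.

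To show the first bases of the genes with the most enriched well-covered start windows, the first 30 bases of 8 of them are printed from the most upstream RefSeq start (GRCh38.p14), with the first transcribed base in capitals. The coordinates in the order below are chr6:31827738-31827767 (plus), chr14:89619136-89619165 (minus), chr17:3668812-3668841 (plus), chr6:113857345-113857374 (plus), chr16:69132559-69132588 (minus), chrX:77895539-77895568 (minus), chr6:30345156-30345185 (plus) and chr19:32691821-32691850 (plus). The windows' transcripts were not shown to begin at these bases. The windows of FOXN3 (from base 175) and of MAGT1 and NUDT19 (from base 150) do not include the first 30 bases. TOMM5 and TEAD1 also ranked among these genes and are not printed.
HSPA1B: Aaacggccagcctgaggagctgctgcgagg
FOXN3: Agccggggttccggccgcgatctgctgcag
EMC6: Agtcttccgagcaagatggcgccgcgggca
MARCKS: Gcacttgggcgttggaccccgcatcttatt
CHTF8: Agtcggaagtgcgcaggcagtgctcgcggc
MAGT1: Gtgtagcgccagcgcgctgtgacgtaatgt
RPP21: Ctggagcgcggcggtgatggcggggccggt
NUDT19: Aaacgcccaggttcacccaacgccagaggc

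Among start windows supported in both replicates with input at or above the median, the highest ratio of a protein-coding gene was at HSPA1B, an inducible heat-shock HSP70 gene. Its window ran from base 0 to 300 in replicate 1, with a ratio of 88.7 over an input of 518.4, and from 0 to 325 in replicate 2, with 209.3 over 569.9. The listed motif, GGACT at base 135, and the summit, at base 114, were the same in both replicates. HSPA1B also had a window from base 1925 to 2375 in replicate 1 and to 2425 in replicate 2, with ratios of 37.4 and 90.4, lower than at the start in both replicates. HSPA1B is nearly identical to HSPA1A, so the split of reads between these genes is uncertain. The only larger ratio by the same rule was at MTRNR2L1 (575.2 and 302.9), a nuclear copy of mitochondrial ribosomal RNA sequence, so the assignment of its reads is uncertain.

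In 5 more of these genes the enriched window also began at the first base in both replicates. EMC6, a subunit of the membrane-protein insertase of the endoplasmic reticulum, had ratios of 35.9 and 61.9 at bases 0 to 250. TOMM5, a small subunit of the mitochondrial import pore, had 35.1 and 72.3 over the first 375 and 400 bases. CHTF8, a component of a clamp-loading complex, had 29.8 and 26.7 with its summit at base 43, and IER5, an immediate early gene, had 29.1 and 23.4 with its summit at base 101. RPP21, a protein subunit of ribonuclease P, had ratios of 24.7 and 45.4, but its listed motif was at base 30 in replicate 1 and at base 162 in replicate 2.

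The remaining genes of this rule had their summits past the first 200 bases. FOXN3, a forkhead repressor, had ratios of 46.4 and 39.7 at bases 175 to 450, with summits at 335 and 336. MARCKS, a membrane-bound substrate of protein kinase C, had 28.1 and 26.9 in windows that ran to base 575 and peaked at 521 and 523. MAGT1, a subunit of the oligosaccharyltransferase, had 26.6 and 41.8, and NUDT19, a peroxisomal coenzyme A hydrolase, had 24.5 and 32.9. TEAD1, the DNA-binding partner of YAP, had 26.8 and 29.7, with both summits at base 260. For these genes the rule caught the front edge of a window centred further in.

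Start windows were counted next among Wnt pathway genes. Wnt ligands act through Frizzled receptors to release β-catenin from its destruction complex, and β-catenin then activates targets with TCF factors. Of 36 listed Wnt genes with any m6A window, 10 (27.8%) had a start window and 9 had overlapping ones in both replicates, where all m6A genes had 15.4% and 8.14%. No test was made on these shares. The study is titled for Wnt signalling, and the list was made with that known.

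Among the receptors, FZD7 had the highest ratios, 113.3 at bases 100 to 375 and 50.1 at bases 100 to 275. Its summit at base 188, its GGACC at base 192 and its input of 23.0 were the same in both replicates. FZD6 had ratios of 33.7 and 17.9, over inputs of 18.2 and 30.1. EPHB2, an ephrin receptor and Wnt target of intestinal crypts, was just above the limit of the lists, with 3.14 and 3.29.

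In the destruction complex and nuclear arm the ratios were as spread. TNKS, the tankyrase that marks AXIN for degradation, had ratios of 19.7 and 16.8 from base 0. GSK3B, the kinase that phosphorylates β-catenin for destruction, had 3.05 and 3.39 at bases 125 to 300. CTNNB1, β-catenin itself, had 6.11 and 5.38, with a listed GGACT at base 202, and its inputs of 62.7 and 85.3 were below the medians of the lists. TCF7L2, the main TCF partner of β-catenin in the intestine, had 46.8 at bases 25 to 175 and 30.2 at bases 50 to 100, over inputs of 15.8 and 5.28. Of the targets, SOX9, a transcription factor of crypt stem cells, had 12.2 and 10.9, and CCND1, cyclin D1, had 8.48 and 8.34 in windows that ran from base 75 or 100 to 1075 and peaked at base 626. CSNK1A1, the priming kinase of the complex, had a start window in replicate 1 only, with 12.6 over an input of 12.6. The Wnt genes thus ranged from the detection limit to ratios above 100 within the same 200 bases, and the highest of them rested on low input.

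**Figure D3:**
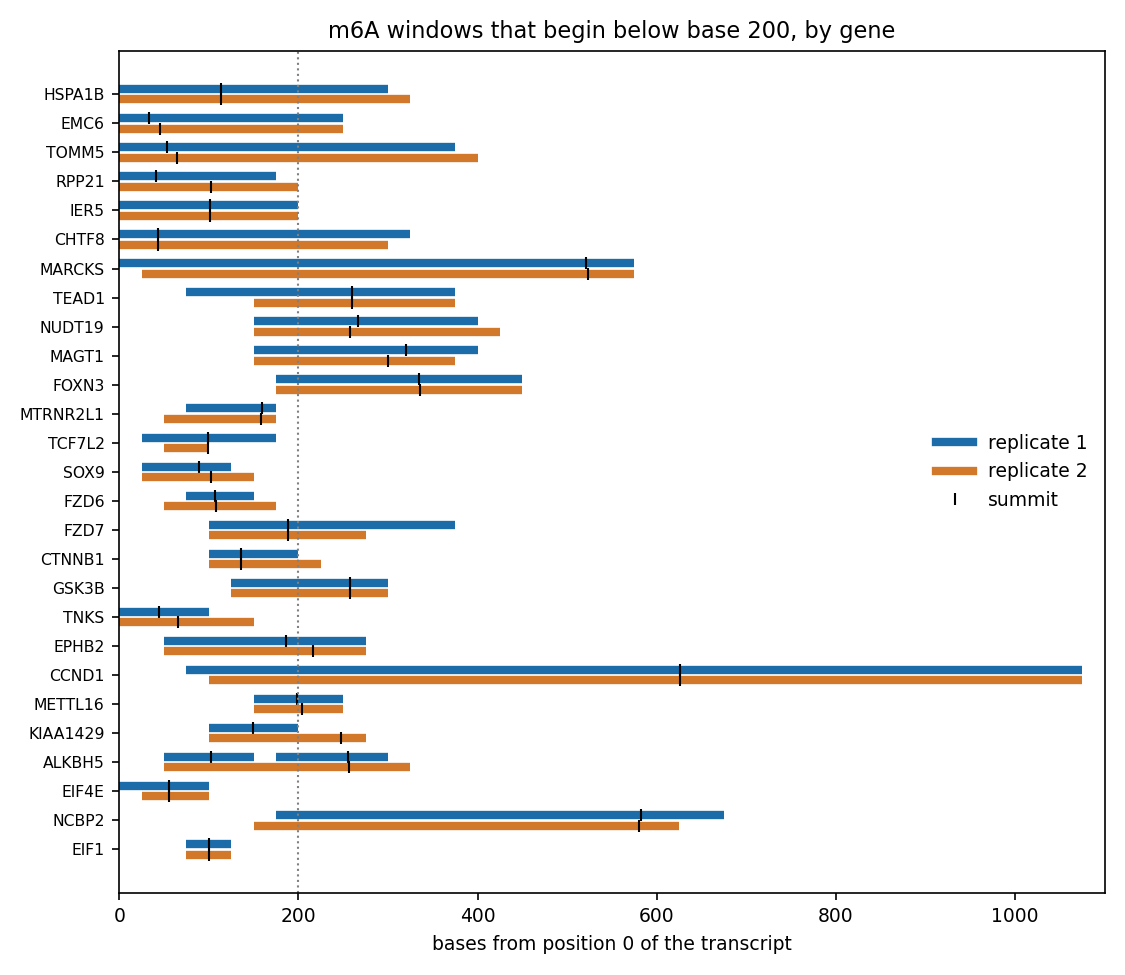
Start windows of named genes drawn to scale along the first bases of the transcript (horizontal axis, bases from the listed start), 1 bar per window and replicate, with summits marked. The dotted line at base 200 is the limit for the first base of a window: windows of HSPA1B, EMC6 and TOMM5 reach the first base, and those of FOXN3 and MAGT1 only begin before base 200.

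Of 18 listed m6A and m6Am enzymes and readers with any m6A window, 5 (27.8%) had a start window and 3 (16.7%) had it in both replicates. Over all m6A genes the shares were 15.4% and 8.14%, and no test was made. KIAA1429 (VIRMA), a scaffold of the writer complex, had ratios of 17.4 and 13.5, with different listed motifs. ALKBH5, an m6A demethylase, had windows at bases 50 to 150 and 175 to 300 in replicate 1 (6.94 and 5.93) and a single window over both stretches in replicate 2 (7.90). METTL16, the methyltransferase of U6 snRNA and of MAT2A mRNA, had 3.18 and 3.16. METTL3, the catalytic subunit of the writer, had a window only in replicate 1 (6.90 over an input of 23.7), and ZCCHC4, the 28S rRNA methyltransferase, only in replicate 2 (3.71).

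Cap-binding and initiation factors had start windows at about the share of all m6A genes: 5 of 32 (15.6%) in either replicate and 3 (9.38%) in both. EIF4E, the cap-binding subunit of eIF4F, had ratios of 5.69 and 4.24 with the same summit at base 56. NCBP2, the small subunit of the nuclear cap-binding complex, had 7.86 and 9.38 in windows peaking at bases 582 and 580. EIF1, which guards start-codon choice, had 3.76 and 3.69 at bases 75 to 125, with the same input of 49.9. EIF4EBP2, an inhibitor of EIF4E, had a start window in replicate 2 only, with a ratio of 17.5, as did EIF5B, which joins the ribosomal subunits, with 5.55.

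Heat-shock and stress genes were at or below the background, with 2 of 24 (8.33%) in either replicate, HSPA1B and PPP1R15B, a phosphatase subunit that reverses eIF2α phosphorylation (11.6 in replicate 1 only). Zinc finger genes (symbols in ZNF followed by a number), a large family of DNA-binding regulators, had start windows in 21 of 249 (8.43%) and in both replicates in 8 (3.21%). Over all m6A genes the shares were 15.4% and 8.14%. Among the zinc finger genes, ZNF800 had ratios of 124.2 and 181.6 over an input of 4.25 in both lists. ZNF121 had 14.2 and 24.9 over an input of 721.0 in both, with a window from base 0 to 650 that peaked at 450 and 452.

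Cytosolic ribosomal protein genes had start windows in 14 of 47 with m6A (29.8%) and in both replicates in 10 (21.3%). Over all m6A genes the shares were 15.4% and 8.14%, and no test was made. Ribosomal protein mRNAs are short and begin with a pyrimidine tract. RPL17 stood apart from the rest with ratios of 100.1 and 112.3 at bases 75 to 225, over an input of 30.8 in both lists. The median input of start windows was 104.5 in replicate 1 and 116.7 in replicate 2. RPL5 had 11.3 and 12 over an input of 13.5 in both lists, and RPS3A had 7.36 and 7.77 over 26.2 in both. RPS6 had 10.5 and 10.9 over inputs of 244.0 and 269.7. RPL24, RPS3, RPS4X and RPS7 lay between 3.29 and 4.84. Ribosomal protein genes have many processed pseudogenes, so the assignment of their reads is uncertain.

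Hosts of start windows usually carried m6A elsewhere too. Of the 1475 hosts, 1256 had windows further along, and 219 had start windows only. Where a host had at least 2 windows with a ratio in a list, the start window had the highest ratio of the gene in 355 of 870 genes (40.8%) in replicate 1 and in 358 of 892 (40.1%) in replicate 2. Start windows made up on average 32.9% and 33.8% of the windows of those genes.

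The RIP list holds genes whose YTHDF1 immunoprecipitate was at least 1.5-fold the input FPKM, each from 1 library, so that no test was possible. Its lowest input is 1.00 FPKM, so a gene may also be absent because of low input. Of all 9549 m6A genes 38.3% were listed. Of the hosts of start windows 469 of 1475 (31.8%) were listed, of the both-replicate hosts 244 of 777 (31.4%), and of the m6A genes without a start window 3189 of 8074 (39.5%). The lowest share was in genes with start windows only, 29 of 219 (13.2%). Median RIP ratios of listed genes were close, 2.26 for hosts, 2.21 for both-replicate hosts and 2.30 for other m6A genes.

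The lower share was seen at every number of m6A windows and, with the genes split into 3 equal groups by control mRNA signal, in the middle and highest group. Taking for each gene the larger number of windows in either list, genes with 1 window were listed for 30 of 249 hosts and 18.4% of other m6A genes, genes with 2 to 3 windows for 22.9% and 36.5%, and genes with 4 or more windows for 49.5% and 63.7%. By mRNA signal, the shares were 43.3% and 44.1% in the lowest group, 38.8% and 49.5% in the middle group, and 18.9% and 33.2% in the highest.

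**Figure D4:**
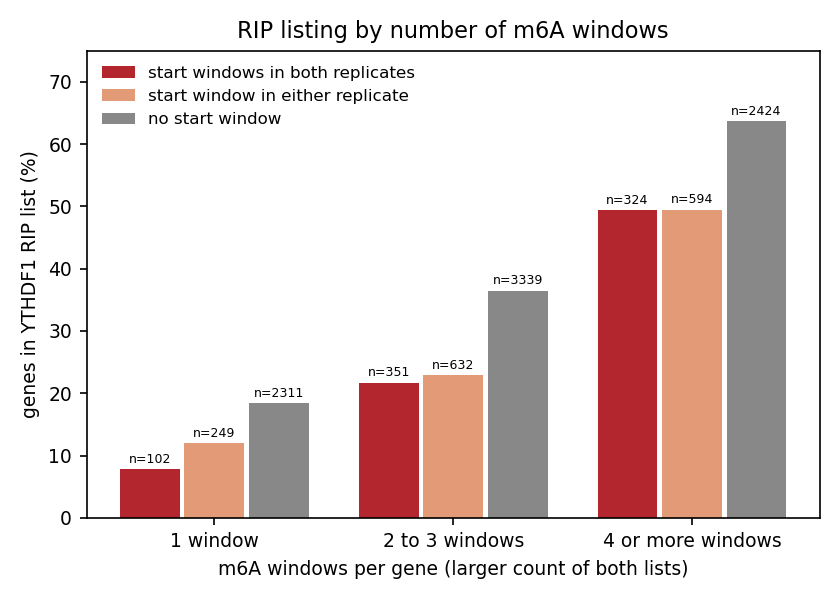
Share of genes in the RIP list (vertical axis, percent) for hosts of start windows, both-replicate hosts and other m6A genes, by the number of m6A windows of the gene, with the number of genes above each bar. Hosts lie below other m6A genes at each number of windows (49.5% against 63.7% at 4 or more).

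The largest RIP ratio of any host was 552.0, in a gene with a start window in 1 replicate only. The genes named here are both-replicate hosts with RIP input at or above the median of the list. HIST1H2BD, a histone H2B gene with a start window of ratio 16.3 and 18.3 and no other window, had 547.8 FPKM in the immunoprecipitate and 9.48 in the input, a RIP ratio of 57.8. IRS1, the insulin receptor substrate, was next among these at 6.49 (47.7 over 7.35 FPKM). Its start window in replicate 1, at bases 0 to 300, had an m6A ratio of 39.7 over an input of 68.8. Replicate 2 listed 2 windows there, with 134.0 over 5.70 at bases 0 to 150 and 9.70 over 81.7 at bases 175 to 325. ARHGAP35, a GTPase-activating protein, had a RIP ratio of 5.48, FLNC, filamin C, 4.75, KDM4B, a histone demethylase, 4.33, and MPRIP, a myosin phosphatase partner, 4.29. The smallest ratios among these were those of NIPA2, a magnesium transporter, at 1.5, with SLC39A9, a zinc transporter, and CAMK1, a calmodulin-dependent kinase, both at 1.51.

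By function, 7 of the 10 Wnt hosts were in the RIP list. The share was 31.8% over all hosts and 49.5% over hosts with 4 or more m6A windows, and no test was made. The listed Wnt hosts were FZD7 at 3.95, TNKS at 3.64, CTNNB1 at 2.33, GSK3B at 2.19, EPHB2 at 2.15, TCF7L2 at 1.86 and CCND1 at 1.53. Of the m6A machinery, KIAA1429 at 2.13 and METTL3 at 1.89 were listed. None of the 5 cap-binding and initiation hosts and none of the 14 ribosomal protein hosts were listed, which says only that no ratio of at least 1.5 was given for them. HSPA1B was listed at 2.88, IER5 at 2.99, TEAD1 at 4.05 and FOXN3 at 1.89.

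Footprints and mRNA were listed for 898 hosts (60.9%). That table holds a signal whose unit the headers do not name, and its lowest control value is 0.5. Footprint signal relative to mRNA signal, as the difference of their log2(value + 1) in the control, had a median of 1.32 in hosts, 1.47 in both-replicate hosts and 0.97 in m6A genes without a start window. In knockdown 1 the medians were 1.12, 1.16 and 0.82, and in knockdown 2 they were 0.933, 1.01 and 0.574, so the order was the same in all 3 libraries. Within the lowest of the 3 groups of control mRNA signal the order was not kept, with 1.09 in hosts, 0.859 in both-replicate hosts and 1.17 in other m6A genes. In the middle group the medians were 1.35, 1.52 and 0.916, and in the highest group 1.47, 1.5 and 0.847.

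Knockdown of YTHDF1 left hosts of start windows close to the rest of the table. On the log2(value + 1) scale, the median footprint change of 891 tested hosts was -0.26, beside -0.28 for all 6782 tested genes. The median mRNA change was 0.02 beside -0.01, and the median change in translational efficiency (footprint change minus mRNA change) was -0.27 for both. For the 466 tested both-replicate hosts the 3 medians were -0.29, 0.03 and -0.30. A shift of all genes towards lower footprints depends on how libraries are scaled: centring each library on its median gave 0.03 for the footprint change of hosts. Footprints were below the control in both knockdown libraries for 455 hosts (51.1%), beside 51.2% of all tested genes.

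By limma with Benjamini-Hochberg adjustment over all tested genes, 1 host of 891 (0.112%) passed 0.05 in footprints, where 0.0295% of all tested genes (2) did, and none passed in mRNA or translational efficiency, where no gene of the table did. At an unadjusted p under 0.05, 61 hosts (6.85%) differed in footprints, beside 8.85% of all tested genes. Of these 9 were higher and 52 lower, and over all tested genes 1.86% were higher and 6.99% lower. The counts were 2 hosts (0.224%) in mRNA beside 0.472%, and 15 hosts (1.68%) in translational efficiency beside 2.73%. At an unadjusted p under 0.05 the share of hosts was below that of the whole table in each contrast. With 1 control per assay, the spread in this model comes only from the knockdown pairs (2 residual degrees of freedom).

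The host that passed was GATAD2B, a subunit of the NuRD chromatin complex. Its footprint signal was 858.1 in the control and 38.2 and 33.1 in knockdown 1 and 2, a log2 change of -4.56 ± 0.39 (SE, adjusted p = 0.0460 by limma). Both knockdown values lay far below the control, and the control is a single library. Its mRNA signal was 9.39, then 12.3 and 8.53, with the control between the knockdown values. The limma call was lost with a pseudocount of 0.5 (adjusted p = 0.0514), without the filter on low values (0.0515), with median centring (0.0643) and with quantile normalisation (0.0536). Without the footprint library of knockdown 2, 5 hosts passed in place of 1, GATAD2B among them, and 80 of all 6782 tested genes in place of 2. In that fit each footprint group holds 1 library, and the spread comes from the mRNA knockdown pair alone. Its start window, at bases 150 to 375, was listed below base 200 only in replicate 2, with a ratio of 7.18 and a summit at 374, and its RIP ratio was 1.73.

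The other hosts named for footprints did not pass adjustment (adjusted p from 0.491 to 0.575 by limma). They were taken from both-replicate hosts with both knockdown libraries on the same side of the control. HSP90B1, the HSP90 chaperone of the endoplasmic reticulum, had a footprint signal of 2266 in the control and 508.0 and 737.4 in the knockdown libraries, a log2 change of -1.89 ± 0.36 (SE, unadjusted p = 0.00145 by limma). Its mRNA signal of 232.1 in the control lay between the knockdown values of 216.0 and 289.4. WDFY1, an endosomal adaptor, had a footprint signal of 74.3 against 20.8 and 27.8 (-1.59 ± 0.42), while its mRNA signal was 7.34 against 14.7 and 11.8.

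SLC1A5, the main glutamine transporter of many tumours, had a footprint signal of 152.7 against 54.3 and 69.2 (-1.30 ± 0.36), and TRA2B, a splicing factor, had 693.8 against 283.8 and 350.8 (-1.13 ± 0.34). By the rule that chose them, both knockdown footprint values were below the single control in all 4 genes. Their start windows were modest, with m6A ratios of 3.85 and 4.86 at HSP90B1, 4.53 and 3.29 at WDFY1, 8.79 and 5.30 at SLC1A5, and 8.92 and 17.1 at TRA2B. Of these, WDFY1 and SLC1A5 were in the RIP list, at 2.38 and 1.71.

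In the other direction, CDK17, a cyclin-dependent kinase, had a footprint signal of 4.86 in the control against 29.3 and 20 in the knockdown libraries, a log2 change of 2.11 ± 0.48 (SE, unadjusted p = 0.00366 by limma). Its mRNA signal was 4.58 against 9.05 and 7.75, so both assays were above the control. LMNA, which encodes the nuclear lamins A and C, had a footprint signal of 789.8 against 1563 and 1117 (0.74 ± 0.32). CBWD2 had 9.90 against 20.1 and 19.9 (0.94 ± 0.41), and KIAA1462, a junctional protein gene, had 3.74 against 8.18 and 9.42 (1.04 ± 0.46). Start-window ratios were 7.01 and 5.26 at CDK17, 21.8 and 21.6 at LMNA, 6.97 and 9.68 at CBWD2, and 3.19 and 3.81 at KIAA1462. CBWD2 belongs to a family of near-identical copies, so its values are uncertain.

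**Figure D5:**
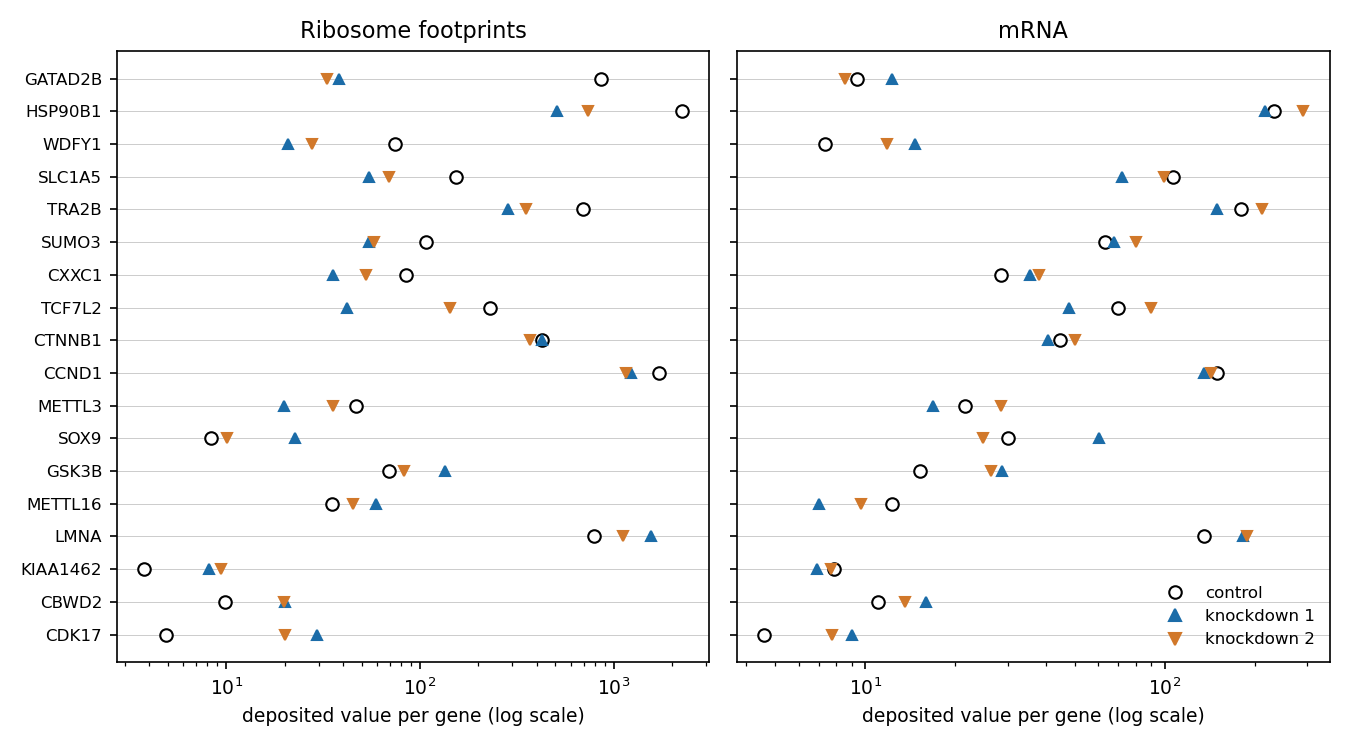
Footprint and mRNA signal (deposited values, log axis) of named hosts in the control and in knockdown 1 and 2, 1 point per library. GATAD2B footprints stand at 858.1 in the control and at 38.2 and 33.1 in the knockdown libraries with mRNA between 8.53 and 12.3, and CTNNB1 footprints at 428.8, 424.2 and 370.2.

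For mRNA, no host passed adjustment by limma. COPS4, a COP9 signalosome subunit, had an mRNA signal of 17.2 in the control against 38.5 and 31.9 (0.98 ± 0.35, unadjusted p = 0.0283 by limma), with a footprint signal of 71.5 against 81.2 and 69.2. LUC7L3, a U1-associated splicing factor, had 27.5 against 46.1 and 45.2, GSK3B had 15.2 against 28.6 and 26.2, and RAB6A, a Golgi GTPase, had 36.5 against 59.0 and 55.3. On the lower side, USP7, a deubiquitinase of the p53 pathway, had an mRNA signal of 160.5 against 70.7 and 93.0. CTSH, cathepsin H, had 16.4 against 6.73 and 10.2, SLCO4A1, an organic anion transporter, 61.3 against 23.8 and 42.3, and DCTN2, a dynactin subunit, 46.2 against 20.7 and 32.2. These genes were taken from both-replicate hosts with both knockdown libraries on the same side of the control, so that agreement is not a result.

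In translational efficiency the named hosts also failed adjustment (smallest adjusted p of a both-replicate host 0.996 by limma). WDFY1 had a log2 change of -2.35 ± 0.59 and HSP90B1 of -1.99 ± 0.50 (SE, unadjusted p of 0.00639 and 0.00642 by limma). SUMO3, a ubiquitin-like modifier, had -1.15 ± 0.45, with a footprint signal of 107.8 against 54.7 and 58.0 and an mRNA signal of 63.2 against 67.9 and 80.1. CXXC1, a CpG-binding subunit of histone methyltransferase complexes, had -1.31 ± 0.54. Among those above the control, CDK17 had 1.36 ± 0.67, KIAA1462 1.14 ± 0.66, CTSH 1.08 ± 0.62 and METTL16 1.07 ± 0.60.

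The Wnt hosts in the table did not move together. TCF7L2 had a footprint signal of 229.5 in the control against 42.2 in knockdown 1 and 143.4 in knockdown 2, a log2 change of -1.55 ± 0.73 (SE, adjusted p = 0.575 by limma), and an mRNA signal of 69.8 against 47.8 and 89.7. Both knockdown footprint values were below the control and lay far apart, while the mRNA values lay on both sides of it. CTNNB1 had a footprint signal of 428.8 against 424.2 and 370.2 and an mRNA signal of 44.7 against 40.8 and 50.2. CCND1 had 1717 against 1235 and 1153 in footprints (-0.52 ± 0.27) and 149.5 against 135.2 and 142.6 in mRNA.

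SOX9 footprints were 8.32 against 22.7 and 10.1, and GSK3B footprints were 68.9 against 135.1 and 82.8, both above the control in each knockdown library. EPHB2 footprints, at 0.614 against 0.601 and 2.11, were on both sides of the control. FZD7 was too low to be tested, with footprints of 0.717, 0.295 and 0.326. Of the writers, METTL3 had a footprint signal of 46.5 against 19.9 and 35.7, and METTL16 had 35.3 against 59.5 and 45.2, with adjusted p of 0.635 and 0.680 by limma. EIF1 footprints were 2718 against 1481 and 1907 (-0.69 ± 0.30), those of NCBP2 were 201.9 against 184.9 and 135.8, and those of EIF5B were 170.9 against 106.3 and 117.8. ALKBH5 differed little, at 9.09 against 8.82 and 7.98.

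Genes with a window at position 0 in both replicates, 118 in all and 69 tested, had a median footprint change of -0.34, a median mRNA change of 0.10 and a median change in translational efficiency of -0.44, beside -0.28, -0.01 and -0.27 for all tested genes. Translational efficiency was below the control in both knockdown libraries for 47 of the 69 (68.1%), beside 52.0% of all tested genes, and mRNA was above it in both for 32 (46.4%), beside 30.9%. In both-replicate hosts, which include these genes, the 2 shares were 59.7% and 34.8%. In hosts with start windows only they were 60.5% and 34.2%, and over all hosts 54.9% and 33.4%. Of the 69, 1 gene (1.45%) had an unadjusted p under 0.05 in translational efficiency and none passed adjustment by limma. Both knockdown libraries are compared with the same single control, and a deviation of that control cannot be told apart from an effect of the knockdown. They are a description of 69 genes, and no test was made over them.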

How the data were processed

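The members and lists were chosen with earlier results of these data known. The expression table holds, as deposited, a relative signal per gene for footprints and mRNA, in a unit that its header leaves unnamed. The RIP list holds FPKM values and their ratio deposited by the authors, listed from a ratio of 1.5. Each m6A list gives, per the file headers, the signal in immunoprecipitate and input and their ratio, called per replicate and listed from 3. STAR and GRCh38 are named in the submitters' processing notes. The peak caller, the quantifier and all versions used upstream were not given in the sources used here.

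Windows were selected with Python 3.11.15 and matched between replicates by gene and at least 1 shared base. Expression was analysed as log2(value + 1), so changes of low genes are understated, and filtered at a mean of 1. This left 6782 genes out of 6926 rows, after 12 damaged names and 132 low genes were dropped. limma 3.58.1 (R 4.3.3) fitted 1 mean per assay and condition, with 2-sided tests adjusted at 0.05 and tested on simulated data. Named genes were the 12 largest m6A ratios with solid input in both replicates, and up to 4 genes per contrast and direction by unadjusted p. The latter came from both-replicate hosts with both knockdown libraries on the same side of the control. Their mean level was at or above the lower quartile of all tested genes. Also named were the extreme RIP ratios with input at or above the list median, the widest windows, and the members of the gene lists with a start window. GATAD2B, the start positions matched to RefSeq, SYNCRIP, DGAT1, and single ribosomal protein and zinc finger genes were named after their values were seen. Some single genes are not reported here.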

Additional observations from a re-analysis of the deposited data

How the results depend on the processing

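With the limit at base 100 the lists held 620 and 641 start windows (median ratio 6.99 and 6.70), and with the limit at base 400 they held 2523 and 2679 (5.66 and 5.68), with 34.2% of hosts in the RIP list. A ratio of at least 5 left 679 and 721 windows (median 9.51 and 9.40, support 79.5% and 76.9%). Input at or above the median, chosen after seeing the data, gave medians of 4.93 and 5.14 and support of 79.6% and 76.1%. Requiring the partner window to begin below 200 gave 66.7% in replicate 2. The cause of these moves was not tested, other than that a stricter limit keeps fewer windows.

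In footprints, limma called 0 hosts with a pseudocount of 0.5, with no filter, with median centring, with quantile normalisation and among both-replicate hosts only. Only knockdown libraries were left out in turn, since each assay has a single control. The median footprint change of hosts then ran from -0.2990 to -0.1848. The median footprint change of hosts was 0.0252 with median centring and -0.0108 with quantile normalisation, and that of translational efficiency 0.0114 and -0.0377. With a replicate block, pairing footprint and mRNA libraries by number, 2 hosts were called in footprints (GATAD2B and HSP90B1) and 1 in translational efficiency (GATAD2B), where 30 and 6 of all tested genes were called. By limma, the adjusted p of HSP90B1 in footprints was 0.0117 with the block and 0.0586 to 0.661 under the other alternatives. That of GATAD2B in translational efficiency was 0.00875 with the block and 0.0844 to 0.924 otherwise, and in footprints it ran from 0.000395 with the block to 0.0643 with median centring. The labels do not say that the number marks a shared culture. The knockdown differences of the assays correlated at 0.37 across genes. Of 260 single-gene values under an alternative, 254 kept their direction and side of the threshold, 4 were weaker, 2 stronger and none reversed. This says little about stability. Leaving out a library could not reverse a footprint or mRNA change, as both knockdown libraries already lay on 1 side of the control. Only the GATAD2B footprint call began under the threshold, and all 4 weaker values were of that call. Depth is unknown throughout.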
